A study of Mus musculus with 24 samples.

Results

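The 40 genes described here are interferon-stimulated genes, the genes that cells switch on when type I interferon binds its receptor. They were taken by symbol from a count table of 11140 genes, and all 40 have a row and passed the filter on low counts. RNA was sequenced from B lymphoma cells isolated out of the spleen, and the mice were C57BL/6. The T cell sufficient group held 12 lymphomas of genotype Bcl6Tg/+, that is, mice with a Bcl6 transgene. The T cell deficient group held 11 lymphomas of genotype Bcl6Tg/+CD3Epsilon-/-, mice that carry the same transgene and lack the epsilon chain of CD3, without which T cells do not develop. Every lymphoma in both groups therefore carries the transgene, and no lymphoma or normal B cell without it was compared. The labels give no age and do not name the promoter that drives the transgene. Libraries were sequenced in 2 runs, with 7 sufficient and 5 deficient lymphomas in run 1 and 5 and 6 in run 2.

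Type I interferons are cytokines that warn cells of viral infection. They bind the receptor chains Ifnar1 and Ifnar2, whose kinases Jak1 and Tyk2 pass the signal on by phosphorylation. Stat2 and Irf9 are parts of ISGF3, the complex that then binds interferon-stimulated response elements in the promoters of its target genes. The proteins made from those genes detect viral RNA and DNA, block translation, degrade RNA and limit the signal itself. In B cells, nucleic acid sensors such as Tlr7 and Tlr9 also feed this pathway through Irf7.

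Total counts ran from 7.58 M to 30.6 M per library, so 3 counts were worth 0.0980 to 0.396 CPM (counts relative to the library's total in M, that is, in mega-counts). The lowest count of any interferon gene in any library was 3, for Mx2. Levels below are CPM scaled by the trimmed mean of M-values (TMM). Cd3e, the deleted gene, was close to the floor in both groups (0 to 2.46 CPM in sufficient and 0.721 to 5.77 CPM in deficient lymphomas), so it does not check the genotype labels. All 8 B cell markers had a row, and the lowest values of Cd79a and Cd79b in any library were 479 and 673 CPM. In 3 sufficient libraries of run 2 (9, 10 and 11), both Xist and Y-linked transcripts reached at least 10 CPM, and the calls over both runs are also given without these 3. Whether they hold RNA of more than 1 mouse was not tested. For sufficient lymphoma 1, which was also sequenced again in run 2, no source states if the counts pool both libraries.

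The 40 genes lie on 13 chromosomes, and several stand next to relatives. On chromosome 5, Oas2, Oas3, Oas1b and Oas1a lie together, and Oasl1 and Oasl2 lie together farther off. Chromosome 19 holds the 3 Ifit genes side by side, and chromosome 16 holds Parp14, Dtx3l and Parp9 in one place, Mx1 and Mx2 in another and Rtp4 in another still (GENCODE M21, GRCm38). Oas1b and Mx2 are annotated there as polymorphic pseudogenes, since C57BL/6 mice carry defective alleles of both. Mx1 is annotated as protein coding, which does not show that its C57BL/6 allele is intact. Of the 40, 30 have a promoter window in the RefSeq table (GRCm38.p6), from 250 bases before to 50 bases after a transcription start. The letters GAAA, any 2 bases and GAAA again, the core of the interferon-stimulated response element, were searched on both strands and occur in the windows of 12 of these 30 (40%), against 1079 of 27025 genes with a window (3.99%). The table holds no window for Dhx58, Zbp1, Oas1b, Oas2, Usp18, Parp9, Parp14, Mx1, Mx2 and Rtp4. A match is a description of letters and was not tested as a binding site.

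Matched sites of 8 of the 12 genes are printed first, because they are the sequence that these genes share. Ifit1, Oas1a, Bst2, Trim30a and Ifitm3 hold 2 matches each, of which 1 is shown. Each line gives the match in capitals with its 6 flanking bases on either side, 5′ to 3′ on the strand of the match, which stands 85 bases before the start in Ifit1, 14 in Oas1a, 75 in Oas3 and 124 in Bst2, and after the start in Ifih1, Ddx58, Trim30a and Ifitm3.
Ifit1, chr19:34640804-34640813, minus strand: cagtgaGAAACTGAAActgaga
Ifih1, chr2:62646214-62646223, minus strand: agaatcGAAACAGAAAccgatc
Ddx58, chr4:40239814-40239823, plus strand: ccatagGAAATCGAAActgcct
Oas1a, chr5:120907530-120907539, minus strand: gaaatgGAAACTGAAAatctac
Oas3, chr5:120777725-120777734, minus strand: ggaggaGAAAACGAAAgtgaag
Bst2, chr8:71537587-71537596, minus strand: gaaaatGAAACTGAAAggctgc
Trim30a, chr7:104446114-104446123, plus strand: aactgaGAAAAAGAAActaaaa
Ifitm3, chr7:141010733-141010742, minus strand: attcagGAAAAGGAAActtctg

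Isg15 has 3 overlapping matches, which is why its whole window is printed (chr4:156200769-156201068, minus strand, matches in capitals).
Isg15: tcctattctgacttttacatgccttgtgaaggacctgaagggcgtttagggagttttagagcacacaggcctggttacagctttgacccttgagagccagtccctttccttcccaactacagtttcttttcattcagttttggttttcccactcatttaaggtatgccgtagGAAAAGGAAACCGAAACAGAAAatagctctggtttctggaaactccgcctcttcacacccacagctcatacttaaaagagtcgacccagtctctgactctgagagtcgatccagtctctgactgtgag
The windows of Irf7 (chr7:141266375-141266674, minus strand), Helz2 (chr2:181241978-181242277, minus strand) and Isg20 (the first of its 3 windows, chr7:78913174-78913473, plus strand) hold 0 matches to the same element. They are printed because Isg20 and Helz2 are the genes that differed between the groups and Irf7 is the regulator of the set.
Irf7: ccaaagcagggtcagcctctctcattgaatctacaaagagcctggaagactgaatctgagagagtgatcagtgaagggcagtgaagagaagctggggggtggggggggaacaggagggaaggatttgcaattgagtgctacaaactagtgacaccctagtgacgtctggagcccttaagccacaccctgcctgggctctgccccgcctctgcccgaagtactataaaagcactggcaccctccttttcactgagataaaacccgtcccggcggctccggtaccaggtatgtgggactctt
Helz2: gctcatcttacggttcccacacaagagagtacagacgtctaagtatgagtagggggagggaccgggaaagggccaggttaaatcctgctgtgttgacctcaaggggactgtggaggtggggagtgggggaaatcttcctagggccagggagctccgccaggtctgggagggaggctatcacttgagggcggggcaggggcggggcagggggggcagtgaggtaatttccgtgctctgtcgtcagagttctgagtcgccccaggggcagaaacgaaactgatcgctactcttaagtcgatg
Isg20: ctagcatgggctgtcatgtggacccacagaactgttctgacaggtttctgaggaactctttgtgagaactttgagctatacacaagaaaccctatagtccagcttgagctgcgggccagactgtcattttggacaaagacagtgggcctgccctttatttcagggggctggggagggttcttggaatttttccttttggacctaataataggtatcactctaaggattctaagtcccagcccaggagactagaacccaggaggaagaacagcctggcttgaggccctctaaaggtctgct
Having no match says only that these letters are not in this window.

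Interferon response genes as a group were not called higher or lower in T cell deficient lymphomas over both runs. Isg20 was higher and Helz2 was lower, and the other 38 genes did not pass. These 2 of 40 stand against 22.2% of the 11020 genes tested, of which 10.6% were called higher and 11.7% lower (quasi-likelihood test of edgeR, run as a covariate, Benjamini-Hochberg adjusted p under 0.05 over all genes tested). At an unadjusted p under 0.05, 1 gene was higher and 5 were lower, against 1957 higher and 2016 lower of all 11020. The log2 fold changes (deficient over sufficient) of the 40 had a median of -0.12, with 14 positive and 26 negative. Over all genes tested the median was -0.01, with 49.2% positive. The number called depended on which lymphomas were included, with 1 to 8 genes called when 1 library was left out. The 8, of which 7 were lower, came without deficient lymphoma 8, against 2458 of all 11061 genes in that fit. That lymphoma was picked for its high levels of these same genes, so leaving it out was bound to lower their changes. The summed CPM of 8 B cell markers was lower in deficient lymphomas (3156, 4334 and 7104) than in sufficient ones (4465, 6641 and 10617, lowest, median and highest), and its part in these results was not tested. In such bulk samples, fewer cells of a type and less RNA per cell cannot be told apart.

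Isg20, an exonuclease that degrades viral RNA, was the gene with the clearest difference. It had 9.16, 28.1 and 110 CPM (lowest, median and highest) in sufficient and 26.1, 76.3 and 169 CPM in deficient lymphomas. Of the 11 deficient lymphomas, 10 lay above the sufficient median and 2 above every sufficient lymphoma, so the groups overlapped. It was 2.28-fold higher in deficient lymphomas (log2 fold change 1.19 ± 0.34 SE, 95% interval 0.52 to 1.85, edgeR adjusted p = 0.0165). Its log2 fold change was 1.02 in run 1 (adjusted p = 0.365) and 1.36 in run 2 (adjusted p = 0.0296). Isg20 was called in all 23 fits that left out 1 library. Without the 3 libraries with Xist and Y-linked transcripts its log2 fold change was 1.06 and it was not called (adjusted p = 0.0902).

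Helz2, a helicase and transcriptional coactivator that interferon induces, was lower. It had 229, 427 and 1293 CPM in sufficient and 236, 325 and 562 CPM in deficient lymphomas. No deficient lymphoma lay below every sufficient one, and the gap came from run 2, where the sufficient lymphomas had 624, 833 and 1293 CPM and every deficient lymphoma was lower (263, 446 and 562 CPM). Over both runs it was 1.51-fold lower (log2 fold change -0.60 ± 0.21 SE, 95% interval -1.01 to -0.19, edgeR adjusted p = 0.0439). In run 1 its log2 fold change was -0.04 (adjusted p = 0.951) and in run 2 -1.21 (adjusted p = 0.0127). The call was lost in 14 of 23 fits that left out 1 library, with an adjusted p of up to 0.0825 without sufficient lymphoma 8, which had its highest level. Helz2 was also not called over both runs without the 3 libraries with Xist and Y-linked transcripts, which are all sufficient lymphomas of run 2.

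**Figure D1:**
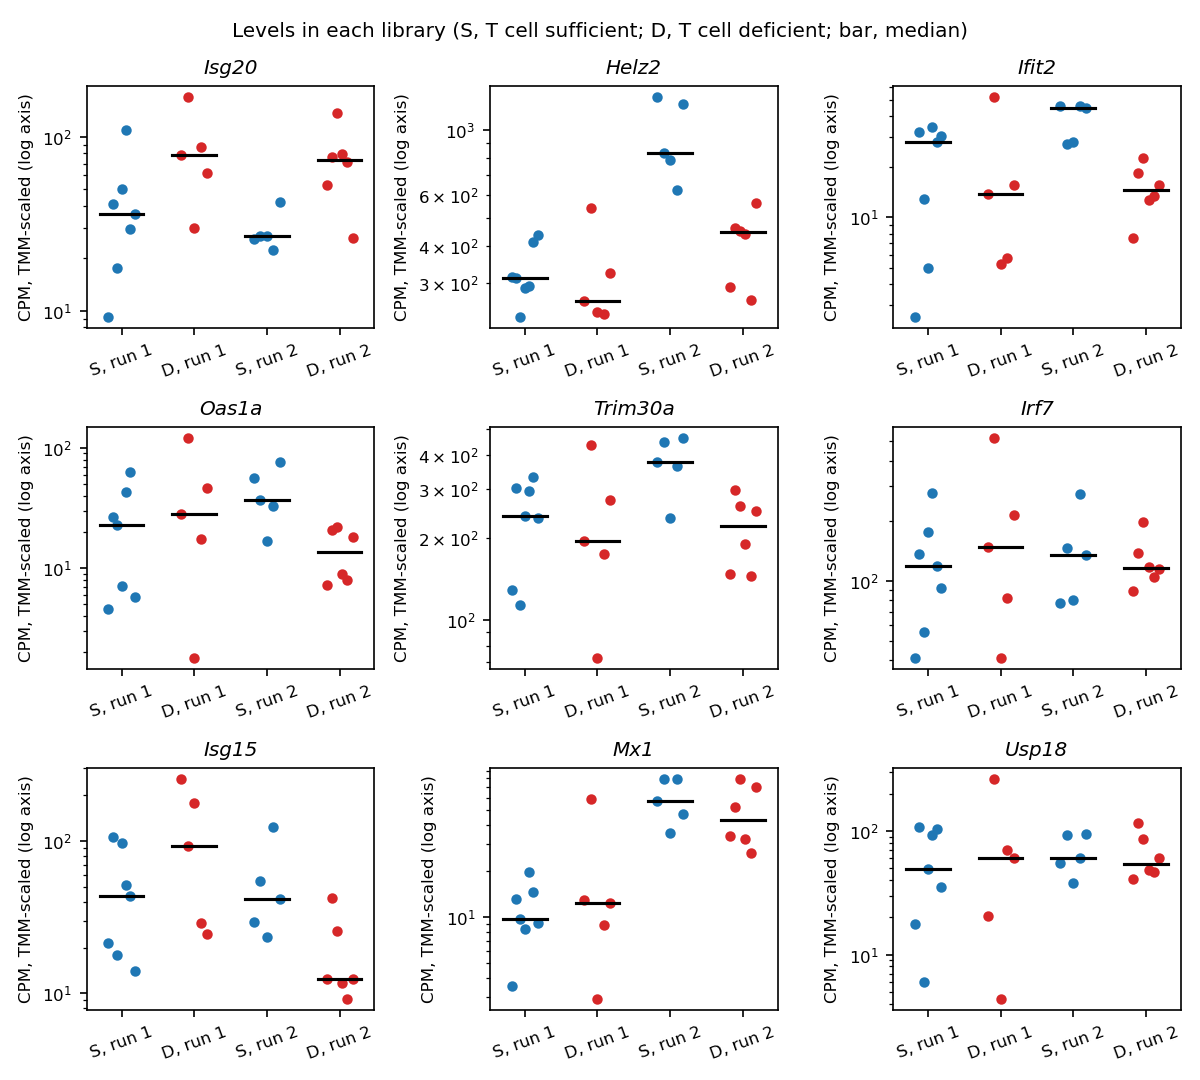
CPM (TMM-scaled, log axis) of 9 interferon response genes in each library, by group and run, with the median as a bar. Isg20 is higher in most deficient lymphomas of both runs, Helz2 and Ifit2 do not overlap between the groups in run 2, and 1 deficient lymphoma of run 1 stands far above the others of its group and run for Irf7, Mx1 and Usp18.

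Among the regulators, Irf7, the transcription factor that drives interferon production, varied widely without a group difference. It had 41.0, 127 and 274 CPM in sufficient and 41.2, 117 and 519 CPM in deficient lymphomas. The groups overlapped over nearly their whole range, and the highest value was that of deficient lymphoma 8 (log2 fold change 0.26 ± 0.36 SE, edgeR adjusted p = 0.637). Irf9, the DNA-binding part of ISGF3, had 77.8, 129 and 190 CPM in sufficient and 40.9, 103 and 147 CPM in deficient lymphomas. It missed the threshold over both runs (log2 fold change -0.46 ± 0.18 SE, adjusted p = 0.0676) and in run 2 alone (-0.51, adjusted p = 0.0652). Exons of Irf9 overlap those of Rnf31 on the same strand and exons of Irf7 overlap those of Phrf1 on the other strand, and how such reads were counted is not stated.

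None of the 4 nucleic acid sensors was called, and they leaned in different directions. Ifih1, which encodes the long RNA sensor MDA5, had 15.2, 44.5 and 104 CPM in sufficient and 27.8, 39.6 and 170 CPM in deficient lymphomas (log2 fold change 0.73 ± 0.35 SE, edgeR adjusted p = 0.139). Ddx58, which encodes RIG-I, the sensor of RNA ends, had 46.5, 137 and 216 CPM against 7.78, 84.0 and 152 CPM (-0.70 ± 0.33 SE, adjusted p = 0.125). Deficient lymphoma 9 held the highest Ifih1 level of all 23 lymphomas and the lowest Ddx58 level. Dhx58, a regulator of these sensors also named LGP2, and Zbp1, a sensor of Z-form nucleic acids, had log2 fold changes of -0.17 and -0.14.

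The Ifit genes, whose proteins bind viral RNA and block its translation, also split. Ifit1 had 1.89, 16.3 and 31.5 CPM in sufficient and 4.34, 15.0 and 193 CPM in deficient lymphomas, with nearly equal medians (log2 fold change 0.85 ± 0.55 SE, edgeR adjusted p = 0.276). Ifit2 had 2.55, 29.4 and 45.9 CPM in sufficient and 5.26, 13.7 and 52.0 CPM in deficient lymphomas. Of 11 deficient lymphomas, 10 were below the sufficient median of Ifit2, and deficient lymphoma 8 was above every sufficient lymphoma (log2 fold change -0.74 ± 0.42 SE, adjusted p = 0.206). In run 2 the groups did not overlap (27.4, 44.5 and 45.9 CPM against 7.55, 14.5 and 22.6 CPM) and Ifit2 was called lower, 2.55-fold (log2 fold change -1.35 ± 0.26 SE, adjusted p = 0.0114). Over both runs Ifit2 was called in only 1 of the 23 edgeR fits that left out 1 library. That was the fit without deficient lymphoma 8, which had its highest level (-1.20, adjusted p = 0.0226). In the other 22 it was not called, with an adjusted p of up to 0.282. Ifit3 had a log2 fold change of -0.78 (adjusted p = 0.273).

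The 6 oligoadenylate synthetase genes encode enzymes, or enzyme-like proteins, that respond to double-stranded RNA, and the active enzymes make the messenger that activates RNase L. None was called by edgeR over both runs, with log2 fold changes from -0.50 (Oas2) to 0.41 (Oasl1). This depended on the method for Oas2 and Oas3. In the authors' own comparison their log2 fold changes were -1.71 (adjusted p = 0.00583) and -1.54 (adjusted p = 0.0331), and limma-voom also called both. Oas1a had 4.58, 29.6 and 75.8 CPM in sufficient and 1.79, 18.3 and 121 CPM in deficient lymphomas (log2 fold change -0.35 ± 0.58 SE, edgeR adjusted p = 0.694). In run 2 it was called lower, 3.06-fold (17.0, 36.9 and 75.8 CPM against 7.24, 13.6 and 22.0 CPM, log2 fold change -1.62 ± 0.42 SE, adjusted p = 0.0315), and the groups overlapped. In run 2, Oas2 (-1.70, adjusted p = 0.0648) and Oas3 (-1.90, adjusted p = 0.0658) had larger changes that did not pass. Oas genes are similar in sequence, so their counts may share reads.

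The ISG15 group attaches and removes Isg15, a ubiquitin-like protein, and none of its 4 genes was called. Isg15 had 13.9, 42.8 and 123 CPM in sufficient and 9.16, 25.9 and 255 CPM in deficient lymphomas (log2 fold change -0.08 ± 0.55 SE, edgeR adjusted p = 0.936). Its log2 fold change was 1.19 in run 1 and -1.52 in run 2, neither called, and over both runs it changed sign in 5 of the fits that left out 1 library. Usp18, the protease that removes Isg15 and blocks the interferon receptor, had 5.96, 58.0 and 107 CPM against 4.34, 60.2 and 264 CPM (0.24 ± 0.48 SE, adjusted p = 0.743), and its change was -0.30 without deficient lymphoma 8. Herc6, the ligase that attaches Isg15 in mice, and Trim25, a ubiquitin ligase that activates RIG-I, had log2 fold changes of 0.04 and -0.18.

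The helicase gene Helz2 was listed with the ADP-ribosylation genes only for convenience. Those genes are Parp9, its partner Dtx3l, Parp12 and Parp14. Their log2 fold changes were -0.07, -0.12, 0.53 and -0.13, none of them called. Parp9 and Dtx3l overlap head to head on opposite strands. Parp9, Dtx3l and Parp14 were among the more even genes of the set, for example 72.6 to 147 CPM for Dtx3l in sufficient and 57.1 to 152 CPM in deficient lymphomas.

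Of the genes that act on virus particles and membranes, none was called between the groups over both runs. Mx1, a GTPase that traps viral components, had 3.58, 17.1 and 79.4 CPM in sufficient and 2.92, 32.3 and 79.3 CPM in deficient lymphomas (log2 fold change 0.26 ± 0.37 SE, edgeR adjusted p = 0.642). Bst2, or tetherin, which holds budding virus at the cell surface, had the highest level per kilobase of exon of the set (137 CPM per kb, mean of all libraries), ahead of Isg15 (75.9 CPM per kb), while Ifi44 had the lowest (0.591 CPM per kb). Bst2 had 54.3, 114 and 215 CPM in sufficient and 45.5, 94.8 and 299 CPM in deficient lymphomas (-0.07 ± 0.27 SE, adjusted p = 0.870). Ifitm3, which blocks virus entry, ran from 3.77 to 46.7 CPM in sufficient and from 1.55 to 187 CPM in deficient lymphomas.

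Beside Isg20, the genes acting on RNA and nucleotides were not called. Adar, the editor that converts adenosine to inosine in double-stranded RNA and so limits its detection as foreign, was among the steadiest. It had 144, 244 and 329 CPM in sufficient and 133, 226 and 338 CPM in deficient lymphomas (log2 fold change -0.18 ± 0.14 SE, edgeR adjusted p = 0.365). Eif2ak2, the kinase PKR that halts translation, Cmpk2, a mitochondrial nucleotide kinase, and Samd9l, an inhibitor of translation, had log2 fold changes of -0.10, 0.07 and -0.46. Rsad2, or viperin, which makes a chain-terminating nucleotide, had one of 0.64 (adjusted p = 0.256).

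Among the remaining 6 genes, Trim30a, a mouse TRIM protein that interferon induces, was called lower in run 2 alone. It had 235, 379 and 463 CPM in sufficient and 145, 220 and 297 CPM in deficient lymphomas of that run, with overlap (1.75-fold lower, log2 fold change -0.81 ± 0.23 SE, edgeR adjusted p = 0.0421). Over both runs it had 114, 299.6 and 463 CPM against 72.3, 194 and 438 CPM (-0.41 ± 0.25 SE, adjusted p = 0.245). Lgals3bp, a secreted glycoprotein, had 120, 196 and 368 CPM in sufficient and 32.0, 114 and 321 CPM in deficient lymphomas and missed the threshold (-0.77 ± 0.30 SE, adjusted p = 0.0672). Ifi44 had the largest change of the set at the lowest level and also missed it (0.942, 3.27 and 26.9 CPM against 0.327, 0.986 and 4.54 CPM, -1.60 ± 0.59 SE, adjusted p = 0.0544). Ifi35, Rtp4 and Xaf1 had log2 fold changes of -0.04, 0.26 and -0.22. In the authors' deposited table, 6 of the 40 genes have an adjusted p under 0.05 (Irf9, Oas2, Oas3, Helz2, Isg20 and Lgals3bp), of 2535 in the whole table (22.8%).

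Read run by run, the median change of the interferon genes had opposite signs. In run 1 the log2 fold changes of the 40 genes had a median of 0.32 with 29 positive, and in run 2 a median of -0.50 with 37 negative. All genes tested had medians of -0.01 and -0.003, with 48.7% and 49.7% positive. The change was positive in run 1 and negative in run 2 for 26 genes, negative in both for 11 and positive in both for Ifih1, Isg20 and Rsad2. In run 1 edgeR called 0 of 40 genes and 0 of all 11064 tested. At an unadjusted p under 0.05 there were 4 of the 40, all higher, and 1832 of all genes, while DESeq2 called 0 of the 40 (588 of all genes) and limma-voom 0 of both. In run 2 edgeR called 5 of 40, which were Isg20 higher and Helz2, Ifit2, Oas1a and Trim30a lower, against 12.3% of all genes (5.69% higher and 6.61% lower). Of the 5 sufficient lymphomas of run 2, 3 were the libraries with Xist and Y-linked transcripts (9, 10 and 11), so every comparison in run 2 rests largely on them. Without these libraries 3 of 40 genes were called in run 2, and the count over all genes is given below with the other alternatives. At an unadjusted p under 0.05, 18 of the 40 were lower in run 2 and 1 was higher, against 1737 lower and 1682 higher of all 11051. The groups did not overlap for 2 of 40 genes in run 2 (Helz2 and Ifit2, against 8.40% of all genes), for 0 in run 1 (1.81%) and for 0 over both runs (0.163%).

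**Figure D2:**
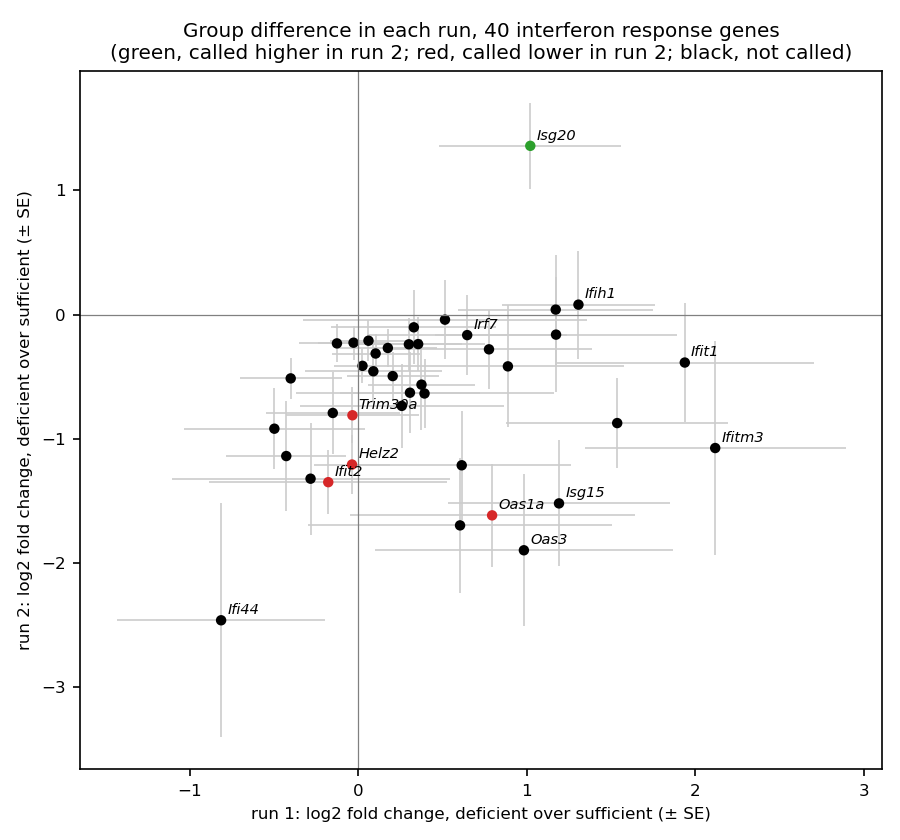
Log2 fold change of T cell deficient over sufficient lymphomas (± SE) for each of the 40 genes, in run 1 on the horizontal axis and in run 2 on the vertical axis. Most points lie in the lower right, with 26 genes positive in run 1 and negative in run 2, and the genes called in run 2 are coloured.

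The difference between runs was itself tested and did not pass for any gene. The interaction of group and run had an adjusted p of at least 0.743 for the 40 genes, and edgeR called 0 of all 11020 (723 at an unadjusted p under 0.05, 8 of the 40 among them, while limma-voom called 0). Its estimate was negative for 39 of 40 genes, with a median of -0.95, against 49.9% negative of all genes tested. Isg15 had the estimate -2.73 ± 0.89 SE (unadjusted p = 0.00575) and Helz2 -1.18 ± 0.34 SE (unadjusted p = 0.00235). The positive lean of run 1 was not seen without deficient lymphoma 8. That lymphoma was picked for its high levels of these same genes, so leaving it out was bound to lower the run 1 change. Medians without other lymphomas of run 1 are not given here. Without it the median log2 fold change of run 1 was -0.20 with 28 of 40 genes negative, and the median interaction was -0.29 with 35 negative. With limma-voom on all libraries the run 1 median was 0.01, with 19 of 40 genes negative. These medians describe the list and were not tested.

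Some of the genes differed between the runs themselves, apart from the group. Mx1, Mx2, Oas1b, Samd9l, Helz2 and Dtx3l were higher and Bst2 was lower in run 2, which is 7 of 40 against 36.3% of all genes tested (edgeR adjusted p under 0.05, group as a term). Mx1 had 3.58, 9.75 and 19.6 CPM in sufficient lymphomas of run 1 and 35.6, 56.8 and 79.4 CPM in those of run 2, without overlap (run term 1.91 ± 0.38 SE on the log2 scale, adjusted p = 0.000461). Samd9l had 48.1, 61.1 and 117 CPM in sufficient lymphomas of run 1 and 177, 260 and 366 CPM in those of run 2, also without overlap (1.56 ± 0.28 SE, adjusted p = 0.000129). In deficient lymphomas the runs overlapped for both genes. Mx1 ran from 2.92 to 59.0 CPM in run 1 and from 26.2 to 79.3 CPM in run 2. Samd9l ran from 15.5 to 117 CPM and from 77.3 to 272 CPM. The share of all genes without overlap between runs is not given here. Bst2 was lower in run 2 (-0.93 ± 0.27 SE, adjusted p = 0.00928). Apart from the repeat of sufficient lymphoma 1, which was not analysed here, the runs held different lymphomas, so the run and its lymphomas cannot be told apart.

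The interferon genes varied more between single lymphomas than most genes did. After the means of group and run were removed, the SD of log2 CPM had a median of 0.895 over the 40 genes and 0.373 over all genes tested, with 36 of the 40 above that all-gene median. Oas2, Oas3 and Oas1a varied most, with SDs of 1.44, 1.43 and 1.43, followed by Usp18 (1.39) and Ifitm3 (1.39). Trim25, Dtx3l, Adar and Parp9 varied least (0.271, 0.318, 0.345 and 0.360).

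**Figure D3:**
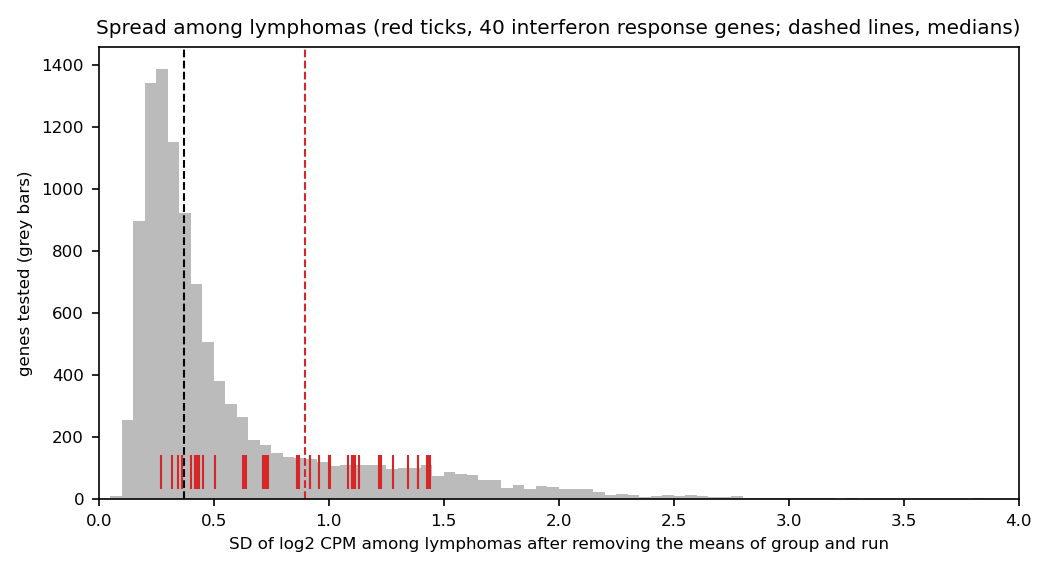
Number of genes (vertical axis) by the SD of log2 CPM among lymphomas after removing the means of group and run (horizontal axis), for all genes tested (grey) and the 40 interferon response genes (red ticks). The dashed medians are 0.373 for all genes and 0.895 for the interferon genes.

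Deficient lymphoma 8, of run 1, held the highest levels of the set. It had the highest value of all 23 lymphomas for 19 of 40 genes, among them Irf7, Oas3, Usp18, Bst2, Rsad2 and Isg20, and 1 of the 3 highest for 28. For 39 of 40 genes it lay above the median of the other deficient lymphomas of run 1, by a median of 1.28 on the log2 scale (2.43-fold), while the same median over all genes tested was -0.04. Oas3 was at 227 CPM in deficient lymphoma 8, and the other 4 deficient lymphomas of run 1 had 3.07 to 24.1 CPM. Irf7 was at 519 CPM there, against 41.2 to 214 CPM in the other 4. Ifitm3 was the gene that did not stand above the others.

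Deficient lymphoma 9, of the same group and run, held the lowest levels for 20 genes, among them Oas1a, Oas2, Oas3, Usp18, Mx1, Irf9 and Ddx58. For 34 of 40 genes it lay below the others, with a median difference of -1.23 against 0.03 over all genes tested. The 6 genes in which it lay above were Ifih1, Ifit1, Oasl1, Isg15, Trim25 and Ifitm3, and Ifih1 (170 CPM) and Oasl1 (219 CPM) had their highest value of all lymphomas there. Deficient lymphoma 7 shared this profile in part. Its levels were 192 CPM for Oasl1, 163 CPM for Ifih1 and 255 CPM for Isg15, the latter with Ifit1 (193 CPM) and Ifitm3 (187 CPM) the highest of all lymphomas, while its Oas3 level was 13.0 CPM. Oasl1 and Ifih1 above every sufficient lymphoma (up to 67.7 and 104 CPM) occurred with low Oas3 in deficient lymphomas 7 and 9. They also occurred with very high Oas3 in deficient lymphoma 8 (95.4 CPM for Oasl1 and 121 CPM for Ifih1). Isg15 was at 92.7 CPM in deficient lymphoma 8, below the highest sufficient value (123 CPM). Each of these levels of lymphoma 8 was the median of the deficient lymphomas of run 1.

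**Figure D4:**
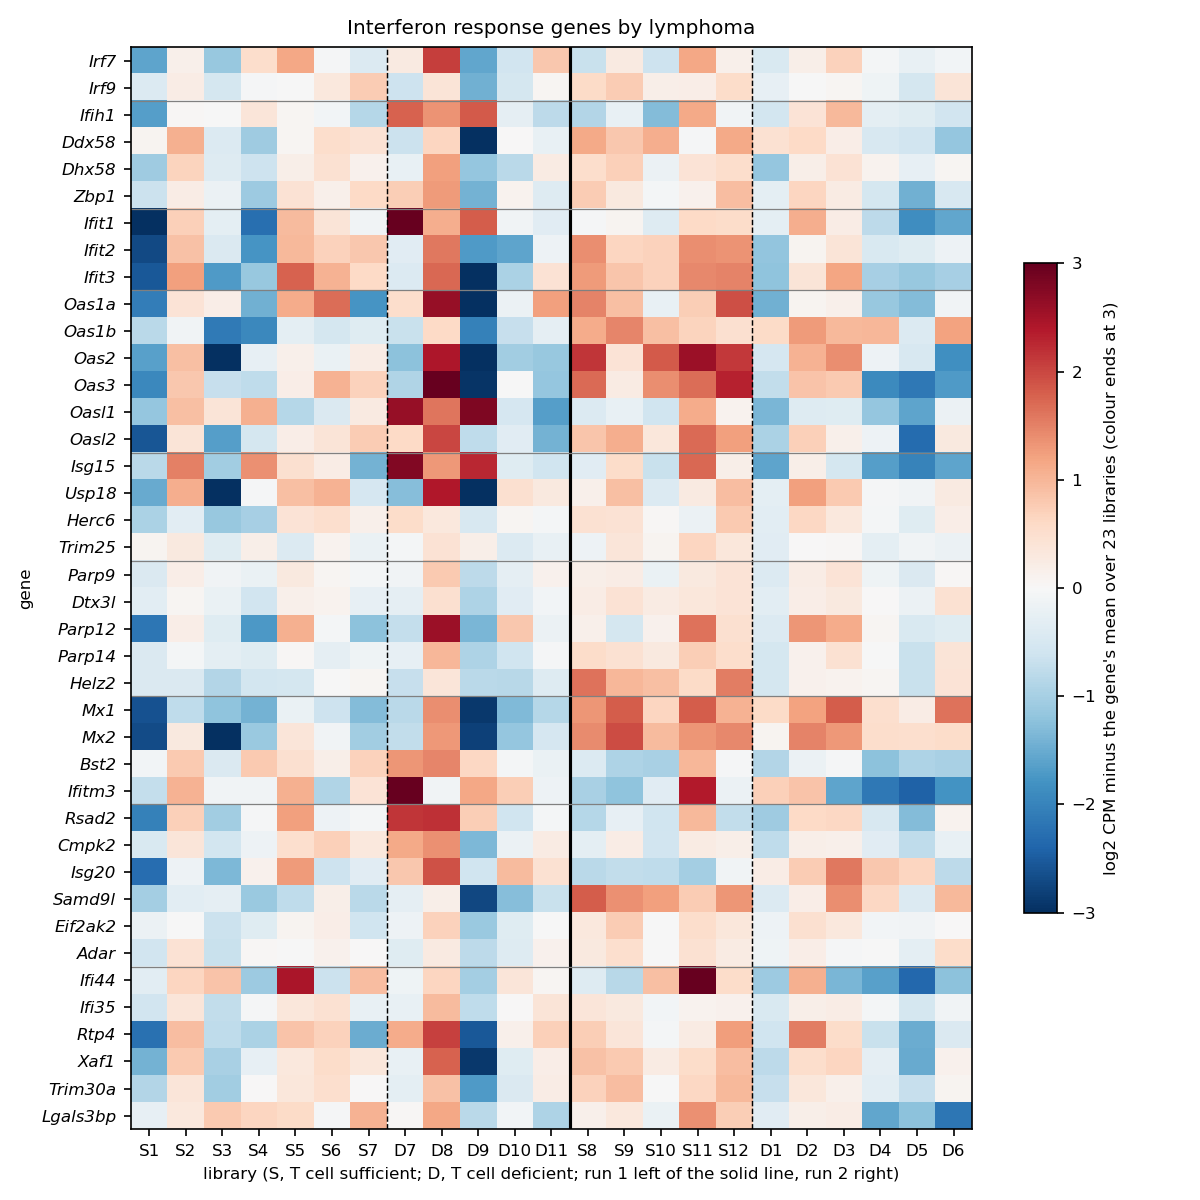
Log2 CPM of the 40 genes (rows, grouped by role) in the 23 libraries (columns, S for T cell sufficient and D for T cell deficient, run 1 left of the solid line), each as the difference from the gene's mean. D8 is high for nearly all rows, S1 and D9 are low for most, and D9 and D7 are high for Ifih1, Ifit1, Oasl1, Isg15 and Ifitm3.

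Among sufficient lymphomas, number 1 held the lowest level for 8 genes, among them Irf7, Ifit1, Ifit2 and Isg20, and lay below the others of its group and run for 37 of 40, by a median of -1.11. Sufficient lymphoma 3 held 4 lowest values. At the other end, sufficient lymphoma 11 held 5 highest values (Oas2, Trim25, Mx1, Ifi44 and Lgals3bp), number 9 had 4 and number 8 had 3. The 5 sufficient lymphomas of run 2 together held 14 of 40 highest and 0 lowest values, whereas the 6 deficient ones of run 2 held 1 and 6. Within run 2, deficient lymphomas 2 and 3 stood above their group by medians of 0.76 each and deficient lymphoma 5 below it by -0.55, with 39 of 40 genes lower.

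**Figure D5:**
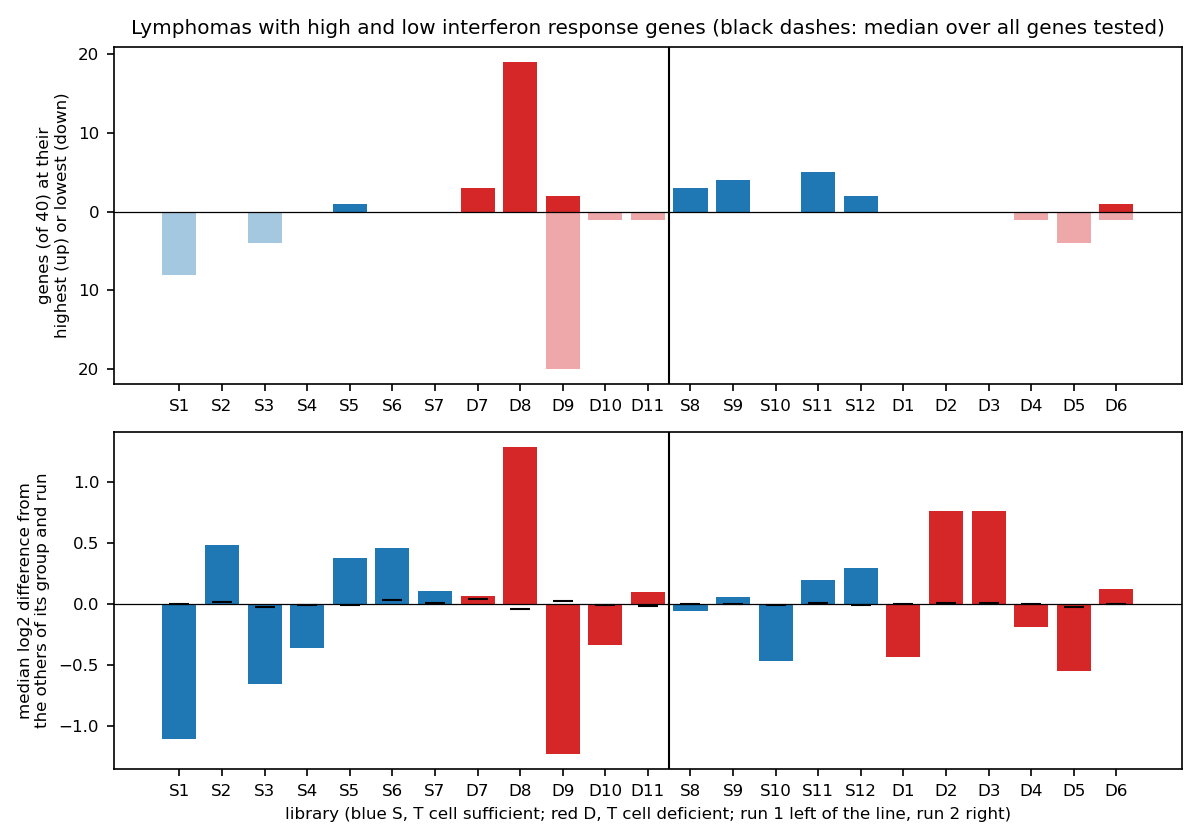
Upper panel, number of the 40 genes with their highest (up) or lowest (down, pale) value in each library. Lower panel, median log2 difference of the 40 genes from the other libraries of the same group and run, with the all-gene median as a black dash. D8 holds 19 highest and D9 20 lowest values, with median differences of 1.28 and -1.23.

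The spread among lymphomas leaned wider in the deficient group but was not called for any gene. Absolute deviations from the median of group and run were compared by limma with run as a term. The estimate was positive (wider in deficient lymphomas) for 36 of 40 genes, with a median of 0.19 on the log2 scale. Over all genes tested 40.6% were positive, with a median of -0.03. The plain means of these deviations, not adjusted for run, were 1.41 in deficient and 0.756 in sufficient lymphomas for Oas3. They were 0.757 and 0.338 for Samd9l (limma unadjusted p = 0.0339). For Irf7 the estimate was positive although the plain mean was smaller in deficient lymphomas (0.669 against 0.699). By limma, 0 of 40 and 0 of 11020 genes passed (454 at an unadjusted p under 0.05, 2 of the 40 among them), and the smallest adjusted p of the 40 was 0.948. Without deficient lymphoma 8 the median was 0.12 with 31 of 40 positive.

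Markers of other cell types were read beside these levels. The summed CPM of 12 monocyte and macrophage markers, of 13 in the list, ran from 215 to 2596 (median 678) in sufficient lymphomas. In deficient lymphomas it ran from 158 to 696 (median 300, that of lymphoma 8). In run 2 the medians were 640 in sufficient and 221 in deficient lymphomas. Each of the 12 markers had a negative log2 fold change. Lyz2 (-1.89, edgeR adjusted p = 0.0210) and Itgam (-2.58, adjusted p = 0.0173) were called lower. Sufficient lymphoma 11, which held 5 of the highest interferon gene values, also held the highest macrophage sum. Deficient lymphoma 8 ranked 15 of 23 by macrophage sum and had the lowest plasma cell sum (309 CPM, as in sufficient lymphoma 8, over 4 of 6 markers), in a range up to 1890 CPM in sufficient and 1396 CPM in deficient lymphomas. The sum of 3 of 7 conventional dendritic cell markers ran over 5.25, 10.7 and 49.0 CPM in sufficient and 12.6, 25.3 and 38.7 CPM in deficient lymphomas, with sufficient lymphoma 11 ranked 1 and deficient lymphoma 8 ranked 4 of 23 (32.0 CPM). Of its markers, Xcr1 was higher in deficient lymphomas (log2 fold change 2.39, edgeR adjusted p = 0.00110), with its highest value in deficient lymphoma 8 (20.1 CPM), and so was Flt3 (1.47, adjusted p = 0.0155), whereas Itgax had -1.15 and was not called. Deficient lymphoma 9 had the lowest sum of 5 of 9 plasmacytoid dendritic cell markers (997 CPM, with the sufficient lymphomas at 1339 to 2612 CPM and the other deficient ones up to 2990 CPM), the second highest plasma cell sum (1396 CPM) and the highest T cell sum (84.6 CPM over 5 of 9 markers, with sufficient lymphomas at 2.87 to 75.2 CPM), of which Cd8b1 alone made up 78.7 CPM and Cd3e, Cd3g, Cd4 and Cd28 had 1.68, 0.329, 0.767 and 3.07 CPM. Over all libraries, Cd3e was at 0 in 2, Cd8b1 in 3 and Cd28 in 1. Spib and Tcf4, which make up most of the plasmacytoid sum, are also B cell genes, and Siglech has no row. Deficient lymphoma 7 had the highest neutrophil sum (146 CPM over 4 of 8 markers, with sufficient lymphomas up to 70.4 CPM). The part of these cells in the interferon levels was not tested.

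Among the upstream signalling genes, calls were all in the lower direction. Of 17 other receptor and signalling genes tested, 0 were called higher and 6 lower (Jak1, Ptpn6, Socs3, Ifngr2, Ptpn1 and Stat3), against 10.6% and 11.7% of all genes, with a median log2 fold change of -0.18. Jak1, the kinase of Ifnar2 and of many cytokine receptors, had 220, 390 and 670 CPM in sufficient and 166, 227 and 306 CPM in deficient lymphomas (log2 fold change -0.77 ± 0.15 SE, edgeR adjusted p = 0.00169). Socs3, a feedback inhibitor of cytokine signalling, had 1.88, 18.5 and 48.3 CPM against 0.0470, 0.955 and 19.4 CPM (-3.33 ± 0.86 SE, adjusted p = 0.00905), with the lower values near the floor. The receptor chains were not called (Ifnar1 -0.18, adjusted p = 0.359, and Ifnar2 -0.47, adjusted p = 0.0649).

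Stat2, which is both a signal carrier and an interferon target, followed the extreme lymphomas only in part. It had 40.3, 72.4 and 199 CPM in sufficient and 24.5, 87.6 and 125 CPM in deficient lymphomas, and the groups overlapped. It was lowest in deficient lymphoma 9 and highest in sufficient lymphoma 11, with 87.5 CPM in deficient lymphoma 8 (log2 fold change -0.08 ± 0.18 SE, edgeR adjusted p = 0.774).

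Of 9 other interferon regulatory factor genes and partners, 0 were called higher and 4 lower, against the same 10.6% and 11.7%. These were Irf1, an activator of interferon targets (log2 fold change -0.98 ± 0.33 SE, edgeR adjusted p = 0.0372), Irf2, which competes with it (-0.47 ± 0.15 SE, adjusted p = 0.0324), and the Irf2-binding proteins Irf2bp2 (-0.58) and Irf2bpl (-2.10). Of 22 genes that lead to interferon production, 0 were called higher and 7 lower, also against 10.6% and 11.7%. Tlr7, the endosomal sensor of single-stranded RNA, had 38.0, 234 and 309 CPM in sufficient and 0.656, 26.8 and 147 CPM in deficient lymphomas (5.10-fold lower, -2.35 ± 0.64 SE, adjusted p = 0.0124), and the highest deficient value was again that of lymphoma 8. Tlr9, the sensor of unmethylated DNA, was 1.76-fold lower (adjusted p = 0.0104) and lowest in deficient lymphoma 9 (42.5 CPM). Unc93b1, the chaperone of both receptors, was 1.72-fold lower (adjusted p = 0.00556), and Tmem173, which encodes STING, 1.77-fold lower (adjusted p = 0.00964). Tank and Azi2, adaptors of the kinase TBK1, had log2 fold changes of -0.70 (adjusted p = 0.00983) and -0.38 (adjusted p = 0.0102).

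Of 61 further interferon-stimulated genes outside the set, 0 were called higher and 11 lower, with a median log2 fold change of -0.24, against 11.7% of all genes called lower. The 6 with the smallest p were Cnp (-0.98), Ly6e (-0.97), Laptm4a (-0.43), Pml (-1.17), Slfn8 (-1.65) and Ifi203 (-1.16). Ly6e, a surface protein that restricts some viruses, had a median of 2865 CPM in sufficient and 1258 CPM in deficient lymphomas (edgeR adjusted p = 0.000894). Pml, the scaffold of nuclear bodies, had medians of 478 and 201 CPM (adjusted p = 0.0119). Slfn8, Slfn5, Ifi203 and Sp100 had their highest deficient value in lymphoma 8 and their lowest in lymphoma 9 (69.9 and 3.91 CPM for Slfn8). They were named after their values were seen, so they are no separate support for the levels of these lymphomas. The share of the 61 genes, or of all genes, with this pattern is not given here. Of 13 genes that keep the cell's own RNA and DNA from being sensed, 3 were called higher and 1 lower, against 10.6% and 11.7% of all genes. Rnaseh2a and Rnaseh2b, subunits of the enzyme that removes RNA from DNA, rose by 0.68 ± 0.15 and 0.47 ± 0.10 on the log2 scale (adjusted p = 0.00378 and 0.00201), and Trim28, a silencer of retroelements, by 0.32 ± 0.08 (adjusted p = 0.0102). Dnase1l3, a secreted DNase, was the lower one (-0.85 ± 0.28 SE, adjusted p = 0.035). Of the genes of the interferons themselves, 16 in the list, 0 had a row in the count table under the symbols searched, so none could be tested.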

How the data were processed

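The authors deposited raw read counts and CPM for 23 libraries, with log2 fold changes, p-values and adjusted p-values of their own comparison, per the file headers. Builds mm10 and GRCm38 and limma are named in the submitters' processing notes. Aligner, counter and strand setting: not given in the sources used here. Dividing counts by library totals gave the deposited CPM within 5e-04. Sufficient lymphoma 4 was matched by its number, and the repeat library was not analysed here.

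The deposited counts were tested with edgeR 4.0.16 (R 4.3.3) after filterByExpr, which removed 120 of 11140 rows, with TMM scaling, robust quasi-likelihood and terms for run and group. Each run was also fitted alone, and the interaction of group and run was tested. The spread was tested with limma 3.58.1 on absolute deviations of log2 CPM (prior count 2) from the median of group and run. A call is an adjusted p under 0.05 over all genes tested. Errors of fold changes are the estimate over the square root of F. Alternatives were DESeq2 1.42.0, limma-voom, other scalings, filters, thresholds, covariates and libraries left out. The code was tested on simulated counts.

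The members and lists were chosen with earlier results of these data known, so no count of them is independent support. Values per group are given for genes called in any comparison of groups and for Irf7, Irf9, Isg15, Usp18, Ifit1, Mx1, Oas1a, Bst2 and Adar. Of each list, called genes are named, at most 6 by smallest p, with Stat2, Ifnar1 and Ifnar2. Some genes of the lists are not reported here. Values of other genes in the set were chosen after they were seen. All 121 pairs within groups differed beyond sampling noise (smallest ratio of chi-square to degrees of freedom 31.0). The labels do not say that lymphomas came from separate animals, so p-values measure the spread between these samples only. Floors cover counting error only. The replicate numbers do not pair the samples.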

Additional observations from a re-analysis of the deposited data

Results flagged for a closer look

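Of 52 groups of libraries checked, over 13 named genes with each group in each run, 6 held 1 library far from the others of its group and run. The cutoff is set for 1 in 20 groups of normally distributed values. CPM was not transformed, the genes share their libraries and some were named for their results, so 6 of 52 cannot be set against that rate. Deficient lymphoma 8 stood apart for Ifit2 at 52.0 CPM (the others of its group and run reached 15.6 CPM), for Usp18 at 264 CPM (others up to 70.4 CPM) and for Mx1 at 59.0 CPM (others up to 12.9 CPM). Deficient lymphoma 7 stood apart for Ifit1 at 193 CPM, with the others up to 57.2 CPM. For Isg20, sufficient lymphoma 5 had 110 CPM in run 1, with the others up to 49.7 CPM, and sufficient lymphoma 12 had 41.8 CPM in run 2, with the others up to 26.9 CPM. Without sufficient lymphoma 5, the log2 fold change of Isg20 over both runs was 1.42.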

How the results depend on the processing

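Over both runs, the number of interferon genes called (2) was 1 with library totals in place of TMM, without the run term and with depth as a covariate, 0 at an adjusted p under 0.01, 5 at 0.10, 5 with DESeq2 (Isg20, Lgals3bp, Helz2, Irf9 and Ifi44; 3092 genes in all), 6 with limma-voom (Oas2, Isg20, Lgals3bp, Helz2, Oas3 and Irf9; 2497 in all) and 0 without the 3 libraries with Xist and Y-linked transcripts, an alternative added after seeing the data, under which 1470 of all genes were called against 2448. With library totals the split of all calls was 1608 higher and 1027 lower, against 1163 and 1285. Leaving out 1 library gave 1 to 8, and the 8 came without deficient lymphoma 8. In run 2 the 5 became 15 with DESeq2 (1 higher, 14 lower; 2499 of all 11051 genes called), 7 with limma-voom (1168 genes), 3 without the Xist and Y-linked libraries (1052 genes) and 2 to 7 with 1 library left out (528 to 1716 genes). For the run term the 7 became 6 to 11, the 11 without deficient lymphoma 8. The counts of 0 in run 1, for the interaction and for the spread were 0 under every alternative run. A count of 0 does not show that the groups have equal spread.

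The replicate number as a block also called 2 of 40 (1832 of all genes), with 4 of 11 pairs of numbers correlated above 0.1 (-0.246 to 0.232) and 1 pair in the same run, so the numbers share only a name. Mx1 had -0.021 there. Isg15 was 0.28 without the run term and 0.42 without the Xist and Y-linked libraries, Bst2 0.10 without the latter, and with limma-voom Usp18 was -0.16 and Mx1 -0.21. With 1 library left out, Isg15 ran from -0.41 to 0.22, Bst2 from -0.21 to 0.16, Irf7 from -0.12 to 0.45, Usp18 from -0.30 to 0.38 and Mx1 from -0.27 to 0.38. The cause was not tested. Genes near 3 counts, such as Mx2 and Ifi44, are limited by depth.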
